A study of Mus musculus with 17 samples.

Results

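Endothelial cells, the cells that line blood and lymphatic vessels, were a small fraction of the sorted skin cells, and 259 of them were found among 30085 skin cells in 8 libraries, which is 0.861% of the skin cells and compares with 91829 cells kept from all 17 libraries of the series. They were chosen by the RNA of each cell. A cell was counted as endothelial when it held at least 3 UMIs (unique molecular identifiers, each standing for 1 captured RNA molecule) of Pecam1, Cdh5, Egfl7 and Cldn5 together, with at least 2 of these 4 genes found, no UMI of the leukocyte gene Ptprc and at most 5 UMIs of the collagen genes Col1a1 and Col1a2. Cells entered this choice with at least 200 genes and at most 20% of UMIs from mitochondrial genes. Because these 7 genes made the choice, their levels are a description, no test of them is given, and they are left out of the counts of gene lists below.

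Blood endothelium forms the inner wall of arteries, capillaries and veins, holds fluid inside with claudin and cadherin junctions, and admits leukocytes by showing adhesion molecules such as ICAM1 and selectins. Lymphatic endothelium, specified by the transcription factor PROX1, drains the tissue and guides dendritic cells with the chemokine CCL21. In skin that heals or scars, sprouting vessels are led by tip cells, which secrete ligands such as apelin and angiopoietin-2 and lay down new basement membrane.

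The 8 libraries came from the skin of 8-week-old mice that carried PDGFRb-Cre and the Z/EG reporter, so that GFP marks cells in which the Pdgfrb promoter was or had been active, and the cells were sorted as PDGFRb+GFP+ before droplet capture. All groups share the Cre, the reporter and the sort, and endothelial cells are described here only as far as they passed it. The SARAWT mice are labelled as wild type for the transgene, and 3 libraries came from mice given PBS and 3 from mice given bleomycin at 20 mg/kg under the skin over 2 weeks. The labels and the methods of the study give different numbers of injections in that time. The SARATg mice carried a human ZFYVE9 cDNA, which encodes SARA (SMAD anchor for receptor activation), behind a CAG promoter and a lox-stop-lox cassette in Rosa26, and gave 1 library after PBS and 1 after bleomycin. The labels number the libraries but do not tie each to 1 animal, so p-values measure the spread between libraries.

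The libraries differed in ways that touch the results. They held between 3355217 UMIs (SARAWT PBS 2) and 69765525 UMIs, and SARAWT PBS 1 and 2 and SARAWT bleomycin 1 and 2 were counted against a gene list with human ZFYVE9 while the other 4 were not. Those same 4 SARAWT libraries had Xist in their endothelial cells and no UMI of the Y-linked Ddx3y, and the other 4 had the reverse, so each SARAWT treatment held 2 libraries of the first kind and 1 of the second. In the endothelial cells mouse Zfyve9 was at 34.0, 37.3 and 1096 CPM (counts per 1000000 UMIs) in SARAWT PBS 1 to 3 and at 16.0, 52.8 and 18.3 CPM in SARAWT bleomycin 1 to 3, against 682 CPM in SARATg PBS and 172 CPM in SARATg bleomycin. Human ZFYVE9 was at 1615 CPM in SARAWT PBS 1 (64 of 71 cells), 447 CPM in SARAWT PBS 2 (9 of 15 cells), 287 CPM in SARAWT bleomycin 1 (5 of 11 cells) and 70.4 CPM in SARAWT bleomycin 2 (3 of 10 cells). All 4 libraries labelled SARAWT that could be read for the human gene thus held it, and SARAWT PBS 3 had more Zfyve9 than either SARATg library, so that all 3 SARAWT PBS libraries, and bleomycin 1 and 2 at lower levels, went against a wild type label. Among libraries of the same gene list, each PBS library held more ZFYVE9, or Zfyve9 where ZFYVE9 was not listed, than each bleomycin library. Treatment and the level of this RNA thus cannot be told apart. Names such as SARAWT PBS 1 stand below for the libraries so labelled. Leaving out every such library would leave no SARAWT PBS, so the comparisons by treatment and tissue are also given without SARAWT PBS 1 and 3, the highest of them. Cell barcodes of 15 endothelial cells, 7 of them in SARAWT PBS 2, also occurred in another skin library. In SARAWT bleomycin 1 and 2 this held for 2 of 11 and 3 of 10 cells, at 538 to 1499 UMIs. Each of these shared its barcode with an endothelial cell of SARAWT PBS 2 that held 5889 to 16582 UMIs. Whether they are copies of those cells was not tested.

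Markers outside the choice were also those of endothelium. Emcn, which encodes the endothelial sialomucin endomucin, averaged 347 ± 124 CPM (SD, n = 8 libraries) in the chosen cells and 0.309 CPM in the other skin cells. Summed over 15 endothelial markers that the choice did not use, the level ran from 2933 to 6845 CPM per library in the chosen cells and from 65.4 to 391 CPM in the other skin cells. The 10 genes with the highest ratio of endothelial cells to other skin cells, after 10 CPM was added on both sides, included 3 genes of the choice, Egfl7, Cdh5 and Cldn5. The others were Ccl21a (420), Fabp4 (185), Gpihbp1 (70.2), Mmrn1 (58.6), Adgrf5 (55.0), Plvap (44.9) and Ptprb (44.0), given as a description of the chosen cells. These include a chemokine and a matrix protein of lymphatic vessels, the fatty acid and lipoprotein lipase carriers FABP4 and GPIHBP1 of capillaries, and PLVAP, which forms the diaphragms of fenestrae. Pdgfrb itself, the gene behind the sort, was at 57.8, 0 and 9.83 CPM in SARAWT PBS 1 to 3, at 10.0 CPM in SARATg PBS and at 0 in all 4 bleomycin libraries, while the other skin cells of the 8 libraries had 7.10 to 59.8 CPM.

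RNA of other cell types was present in the chosen cells. The leukocyte list summed to 194 to 2193 CPM in endothelial cells and 19218 to 28698 CPM in the other cells, and the highest endothelial value was in SARATg bleomycin. Keratinocyte genes stood out in 3 libraries, with 1541 CPM in SARAWT PBS 1, 3836 CPM in SARAWT bleomycin 3 and 9201 CPM in SARATg PBS, where the 15 endothelial markers summed to 3892 CPM. A total of 105 cells held at least 3 UMIs over at least 2 genes of another cell type's list, 73 of them for leukocyte genes, and 15 cells were marked as doublets. At the edge of the choice, 19 members had exactly 3 UMIs, 9 cells just outside had 2 UMIs of 2 genes, and 57 had enough UMIs but of 1 gene only. Ptprc alone left out 68 cells and the collagen limit alone 19. All 4 genes were found in 140 members. The members had a median of 4199 UMIs, with a range from 538 to 29307.

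Lymphatic cells were separated from the remaining endothelial cells by a rule of their own. Of the 259 cells, 82 (31.7%) were counted as lymphatic, with at least 2 UMIs over at least 2 of Prox1, Lyve1, Flt4, Mmrn1, Ccl21a and Reln. At the edge of that rule 9 cells had exactly 2 of these UMIs, 22 had 1 and 146 had none. The 3 libraries with at least 10 lymphatic cells, SARAWT PBS 1, SARAWT PBS 3 and SARATg PBS, allowed both sets to be summed, and the contrast is a description since RNA of these cells defined it. Ccl21a was at 8869, 8195 and 20714.5 CPM in the lymphatic cells of these libraries and at 0 in all 3 sums of the remaining cells. Mmrn1, which encodes a multimerin, was at 1604, 1551 and 3267 CPM against 0 in all 3.

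Genes that the lymphatic rule did not name separated the same cells. Pdpn, the podoplanin gene, averaged 200.5 ± 5.90 CPM (SD, n = 3) in the lymphatic cells and 0 in the remaining cells. Fxyd6, an ion pump regulator, averaged 1101 CPM against 26.4 CPM, and Nsg1 509 CPM against 5.88 CPM. Gpm6a (400 against 5.88 CPM), Sema3d (350 against 4.82 CPM), Tbx1 (220 against 1.14 CPM), Cldn11 (193 against 0 CPM) and Foxp2 (155 against 0 CPM) were higher in the lymphatic cells of all 3 libraries. In the other direction Fabp4 averaged 30.8 CPM in the lymphatic and 14450 CPM in the remaining cells. The fatty acid transporter gene Cd36 averaged 15.4 against 2492 CPM, Ly6c1 3.11 against 1795 CPM, the VEGF receptor gene Flt1 12.4 against 1370 CPM and Rgcc 0 against 700 CPM. Nrp1, which encodes a VEGF co-receptor, and Jam2, which encodes a junction protein, were at 0 in all 3 lymphatic sums and averaged 592 and 447 CPM in the remaining cells. Kdr, the gene of the main VEGF receptor, lay at 497 to 616 CPM in the lymphatic and 410 to 941 CPM in the remaining cells, so that the ranges overlapped, as did those of Emcn. In SARATg PBS alone, the 1 library of the contrast not labelled SARAWT, Fxyd6 was at 1233 against 11.1 CPM, Fabp4 at 55.2 against 7497 CPM and Flt1 at 0 against 1028 CPM.

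**Figure D1:**
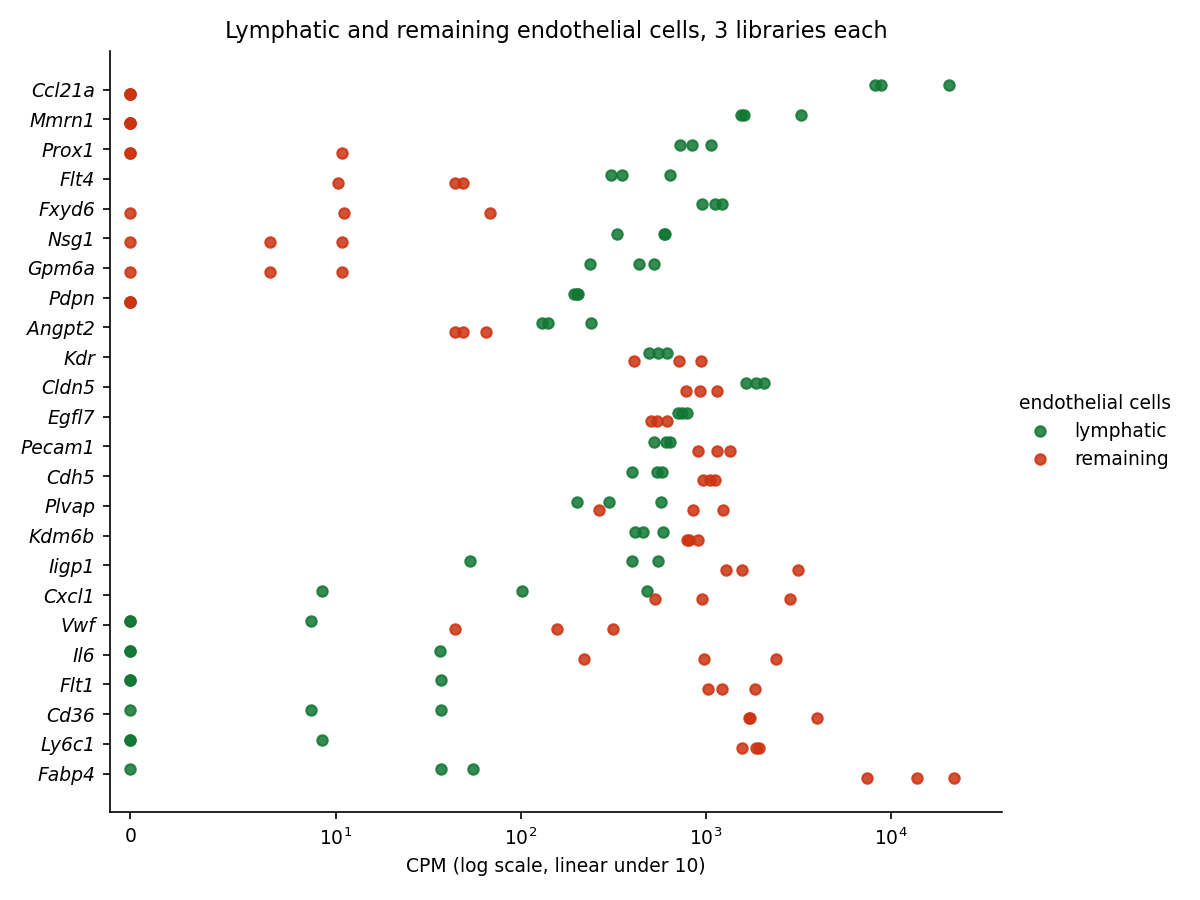
CPM (log axis, linear under 10) of named genes in the lymphatic and the remaining endothelial cells, each summed per library, for the 3 libraries with at least 10 lymphatic cells. Points are libraries, named by kind of cell in the legend. Ccl21a lies at 8195 CPM or more in the lymphatic sums and at 0 in the remaining ones, Fabp4 lies the other way, and the points of Kdr overlap.

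Endothelial cells made up a smaller share of the sorted cells in every bleomycin library than in every PBS library. They were 1.74% (95% exact binomial interval 1.36 to 2.19), 1.92% (1.08 to 3.15) and 1.21% (0.914 to 1.57) of the cells kept in SARAWT PBS 1 to 3. They were 0.510% (0.255 to 0.911), 0.461% (0.221 to 0.847) and 0.519% (0.360 to 0.725) in SARAWT bleomycin 1 to 3. The means were 1.62 ± 0.371% and 0.497 ± 0.0312% (SD, n = 3 each), 3.27 times lower after bleomycin, and the groups did not overlap. The exact two-sided permutation test gave p = 0.1, which is the smallest value that 3 against 3 libraries allow. In SARATg mice the share was 0.988% after PBS and 0.329% after bleomycin, with 1 library each. Over all 8 libraries, permuted within genotype, the exact p was 0.05, the smallest that its 40 assignments allow. The choice left out cells unevenly. Ptprc alone kept out 4, 1 and 12 cells in SARAWT PBS 1 to 3 and 6, 6 and 15 in SARAWT bleomycin 1 to 3. It kept out 9 in SARATg PBS and 15 in SARATg bleomycin. The collagen limit alone kept out 0, 0, 0, 2, 0, 1, 2 and 14 cells in the same order, beside 17 members in SARATg bleomycin. The part of these cells in the shares was not tested.

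Most sorted skin cells were leukocytes, whose number sets part of such a share, so the share was also taken among cells without Ptprc. It was 4.29%, 3.00% and 3.47% in SARAWT PBS 1 to 3 and 1.45%, 1.22% and 2.21% in SARAWT bleomycin 1 to 3. The means of 3.59 ± 0.653% and 1.62 ± 0.521% (SD, n = 3 each) differed 2.21-fold without overlap, again with an exact two-sided permutation p of 0.1. SARATg PBS had 2.10% and SARATg bleomycin 1.16%. Without SARAWT PBS 1 and 3 together, the differences were -1.42 percentage points for the share of cells kept and -1.38 for this share, where 1 against 3 libraries allow no p below 0.25. A share among sorted cells rises or falls with the number of the other cells that pass the same sort, and whether vessels were lost cannot be told apart from this. The intervals cover counting error only.

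**Figure D2:**
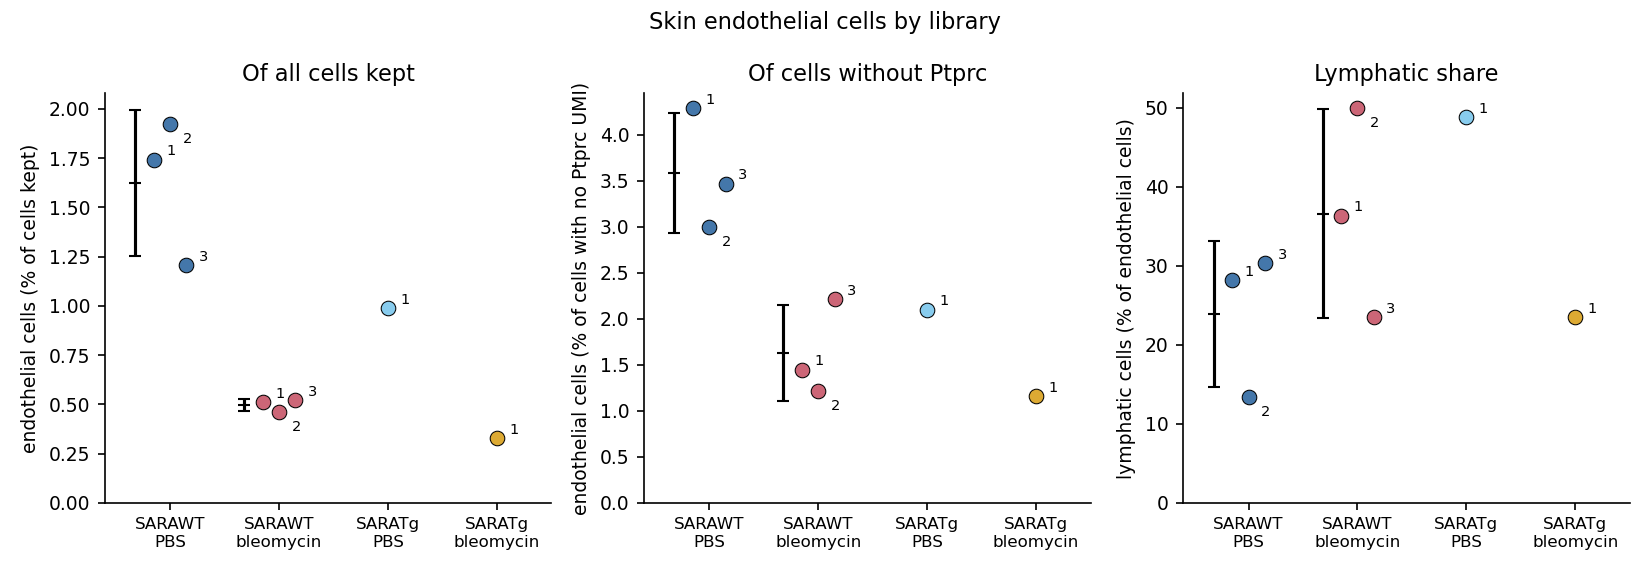
Endothelial cells as a percent of all cells kept and of cells without Ptprc, and cells that met the lymphatic rule as a percent of endothelial cells, in each of the 8 skin libraries. Points are libraries with their replicate number, and bars give the mean ± SD of the SARAWT groups (n = 3 each). The 3 SARAWT bleomycin libraries, at 0.461% to 0.519% of cells kept, lie below the 3 SARAWT PBS libraries, and SARATg bleomycin lies below SARATg PBS.

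The share of endothelial cells that met the lymphatic rule did not separate the treatments. It was 28.2%, 13.3% and 30.4% in SARAWT PBS 1 to 3 and 36.4%, 50% and 23.5% in SARAWT bleomycin 1 to 3, so the groups overlapped. The means were 24.0 ± 9.26% and 36.6 ± 13.2% (SD, n = 3 each, exact two-sided permutation p = 0.3), and SARATg went from 48.9% after PBS to 23.5% after bleomycin. With each cell thinned to 1000 UMIs the difference turned from 12.7 to -6.48 percentage points (p = 0.5 by the same exact test). Thinning also left out the cells under 1000 UMIs, so that 66, 13 and 56 cells of SARAWT PBS 1 to 3 and 9, 7 and 33 cells of SARAWT bleomycin 1 to 3 remained, and the parts of depth and of the cells left out were not told apart. The cells that met the rule were not alike in the 2 treatments. Fabp4, which marked the remaining cells, was at 37.3, 0 and 0 CPM in them in SARAWT PBS 1 to 3 and at 55.2 CPM in SARATg PBS, but at 4199.98, 0 and 1344 CPM in SARAWT bleomycin 1 to 3 and 5346 CPM in SARATg bleomycin. Mmrn1 was at 1412 to 3267 CPM in the 4 PBS libraries and at 303, 1546, 714 and 232 CPM in the 4 bleomycin libraries. Prox1, a gene of the rule, was at 384, 243, 546 and 465 CPM in SARAWT bleomycin 1 to 3 and SARATg bleomycin. Fxyd6, outside the rule, was at 141, 839, 441 and 413 CPM there and at 951 to 1233 CPM after PBS. The summed cells that met the rule in SARAWT bleomycin 1 and 3 and SARATg bleomycin thus held RNA of both kinds of endothelium. These sums cannot tell cells with mixed RNA from a mix of lymphatic and other endothelial cells. After bleomycin only those of SARAWT bleomycin 2 held lymphatic genes without Fabp4. Cells that met the rule also weighed unequally in the summed RNA. They gave 49524 of the UMIs in SARAWT bleomycin 1 and 45291 in SARAWT bleomycin 2, where the remaining cells gave 12629 and 11309, while in SARAWT PBS 1 they gave 107225 against 184813.

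Bleomycin is an antibiotic that breaks DNA and is injected to cause dermal fibrosis in mice, and SARAWT bleomycin was compared with SARAWT PBS on UMIs summed over the endothelial cells of each library. Of 2651 genes tested, 6 (0.226%) passed edgeR's quasi-likelihood test at a Benjamini-Hochberg adjusted p under 0.05, and 354 had an unadjusted p under 0.05. Apln, Igfbp3 and Mest were higher after bleomycin, and Crtc2, Kdm6b and Iigp1 were lower. Apln and Mest met the filter on low counts only through the bleomycin libraries, so they could be called only as higher. Crtc2 met it only through the PBS libraries, so it could be called only as lower. None of the 6 overlapped between the groups, which held for 18.7% of the genes tested. Calls from the same libraries tend to be such genes, so this adds no support. The summed endothelial cells held 56852 to 406860 UMIs per library, and over the genes counted in all libraries, on which CPM were taken, 1 UMI stood for up to 17.7 CPM.

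Apln encodes the secreted peptide apelin, a ligand of the receptor APLNR that endothelial tip cells release. It was at 0, 0 and 4.92 CPM in SARAWT PBS 1 to 3 and at 80.4, 124 and 325 CPM in SARAWT bleomycin 1 to 3. In SARATg mice it was at 0 after PBS and 503 CPM after bleomycin. Apln UMIs were thus found in every bleomycin library and, with 2 UMIs in SARAWT PBS 3, in 1 of the 4 PBS libraries. The fitted change was 6.01 ± 0.85 on the log2 scale (SE, edgeR adjusted p = 0.0352), and the ratio of the summed levels was 95.8 with a counting interval of 25.7 to 804. The other skin cells had 0.143 to 0.313 CPM after PBS and 0.415 to 7.85 CPM after bleomycin. The gene lies on chromosome X at 48025146 to 48034853, minus strand, in GRCm38.

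Igfbp3 encodes a secreted binding protein of insulin-like growth factors. It was at 110, 99.9 and 39.4 CPM in SARAWT PBS and at 3540, 530 and 1184 CPM in SARAWT bleomycin. SARATg PBS had 211 CPM and SARATg bleomycin 1200 CPM. Every bleomycin library thus exceeded every PBS library, with a log2 change of 4.43 ± 0.67 in SARAWT mice (edgeR adjusted p = 0.0352). In the other skin cells Igfbp3 was at 83.7 to 221 CPM after PBS and 48.7 to 71.9 CPM after bleomycin. Mest, an imprinted gene of the mesoderm, was at 41.1, 24.98 and 12.3 CPM in SARAWT PBS and at 483, 106 and 562 CPM in SARAWT bleomycin, a log2 change of 3.97 ± 0.64 (edgeR adjusted p = 0.0360). It was at 10.0 and 517 CPM in SARATg PBS and SARATg bleomycin. Both genes lie in GRCm38, Igfbp3 on chromosome 11 at 7206086 to 7213923 and Mest on chromosome 6 at 30723547 to 30748465.

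Crtc2 encodes a coactivator of the cAMP-responsive factor CREB. It was at 226, 212 and 153 CPM in SARAWT PBS and fell to 16.1, 17.7 and 27.4 CPM in SARAWT bleomycin (log2 change -2.99 ± 0.45, edgeR adjusted p = 0.0352). The SARATg libraries had 176 and 41.4 CPM, and the other skin cells lay between 30.4 and 52.6 CPM in all 8 libraries. Kdm6b encodes a demethylase of histone H3 lysine 27. It was at 719, 712 and 699 CPM in SARAWT PBS and at 129, 212 and 165 CPM in SARAWT bleomycin (log2 change -2.05 ± 0.33, edgeR adjusted p = 0.0360). SARATg PBS had 663 CPM and SARATg bleomycin 166 CPM, so the 4 PBS libraries lay close together and apart from the 4 bleomycin libraries. Other skin cells had 667 to 912 CPM of Kdm6b after PBS and 473 to 708 CPM after bleomycin. Iigp1, an interferon-inducible GTPase gene, was at 2144, 1499 and 1149 CPM in SARAWT PBS and at 499, 406 and 370 CPM in SARAWT bleomycin (log2 change -1.90 ± 0.31, edgeR adjusted p = 0.0360), with 884 and 145 CPM in the SARATg libraries.

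**Figure D3:**
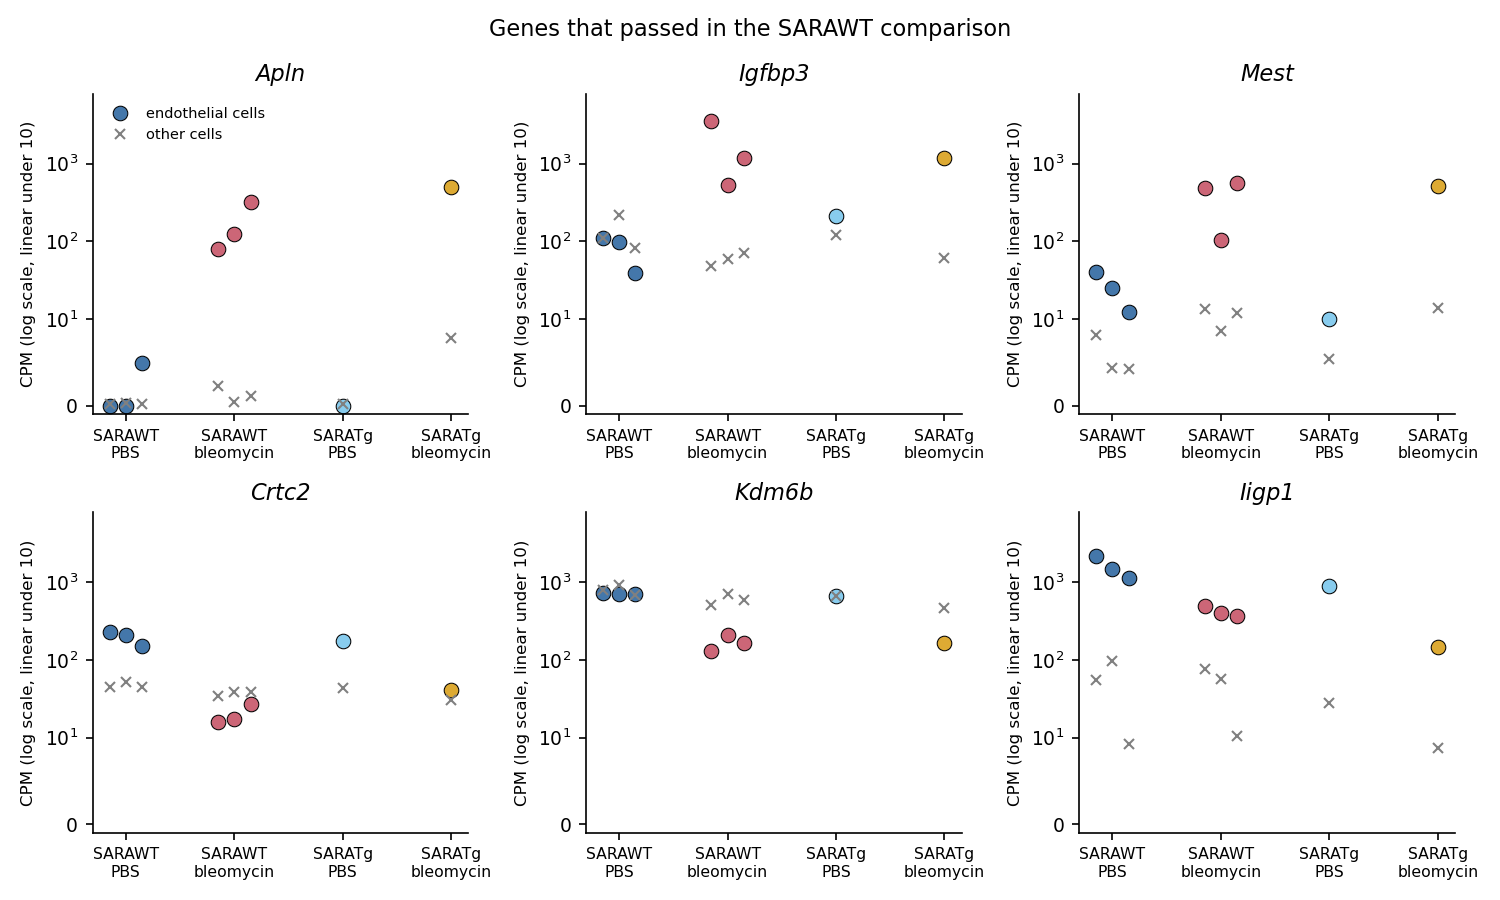
CPM (log axis, linear under 10) of the 6 genes in the endothelial cells (circles) and the other cells (crosses) of each of the 8 skin libraries, by genotype and treatment. The circles of Apln, Igfbp3 and Mest lie higher in all 4 bleomycin libraries, and those of Crtc2, Kdm6b and Iigp1 lie lower.

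These 6 calls moved with the libraries used, while the fitted changes kept their direction. Without SARAWT PBS 1, SARAWT PBS 3 or SARAWT bleomycin 3, edgeR called 0 genes, with 156, 221 and 252 genes at an unadjusted p under 0.05, without SARAWT bleomycin 1 only Apln was called, and without SARAWT bleomycin 2 or SARAWT PBS 2 it called 6 and 8 genes. Over these 6 fits the log2 change lay between -3.46 and -2.87 for Crtc2, -2.24 and -1.90 for Kdm6b, -2.08 and -1.63 for Iigp1, 3.52 and 4.81 for Igfbp3, and 3.48 and 4.64 for Mest, which could be tested in 5. Apln could be tested in 3 of the fits and passed in each, at 5.83 to 6.33. None of the 6 passed without SARAWT PBS 1 and 3 together, at log2 changes from -3.15 for Crtc2 to 7.36 for Apln. That fit held SARAWT PBS 2 alone on the PBS side, so its spread came from the bleomycin libraries only and its calls are not read. The log2 change of Gdf15 was 8.29 there, against 0.35 with all 6 libraries. Those of Fmo2, Cxcl2, Aqp1, Timp4 and Lpl were -3.93, -3.39, -2.76, -4.10 and -3.34. DESeq2 called 56 genes in the 6 libraries. The next genes by p did not pass the test. Among them were Angpt2, the angiopoietin-2 gene, Lgals1, Mcam, Ccnd1 and Gm26917 on the higher side, and Il6, Nr4a2, Adamts1, Cdkn1a and Tsc22d1 on the lower side, with edgeR adjusted p from 0.0552 to 0.0731.

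With the 2 SARATg libraries added and the labelled genotype as a term in the fit, bleomycin was compared in 4 against 4 libraries. The Zfyve9 and ZFYVE9 values above go against those labels and lay higher after PBS. Treatment and their level cannot be told apart in these calls. Of 2980 genes, 81 (2.72%) passed edgeR's test, 29 higher and 52 lower after bleomycin, and the median log2 change over all genes tested was 0.03. The 81 include Cldn5 and Egfl7, genes of the choice, from which nothing is read. All 6 genes above passed, with log2 changes of 6.61 ± 0.74 for Apln, 3.94 ± 0.59 for Igfbp3, 4.30 ± 0.56 for Mest, -2.67 ± 0.38 for Crtc2, -2.01 ± 0.28 for Kdm6b and -2.04 ± 0.28 for Iigp1 (edgeR adjusted p from 0.00241 to 0.00862). Apln, Mest, Crtc2, Kdm6b and Iigp1 passed without each of the 8 libraries in turn, and Igfbp3 passed without 7 of them. In the 8-library fit too, Apln and Mest met the filter on low counts only through bleomycin libraries and Crtc2 only through PBS libraries. The calls of Apln, Mest and Crtc2 could thus go in no other direction. The count of calls fell to 7 without SARAWT PBS 1, to 10 without SARAWT bleomycin 1, to 6 without SARATg PBS, to 7 without SARATg bleomycin, to 27 without SARAWT bleomycin 3 and to 53 without SARAWT PBS 2. Without SARAWT PBS 1 and 3 together, 1 gene passed (Timp4, lower) and 325 had an unadjusted p under 0.05. Of the 81 genes 76 could be tested there and all 76 kept their direction, with log2 changes of 8.67 ± 1.36 for Apln, 4.76 ± 0.87 for Mest, -2.68 ± 0.50 for Crtc2, -2.05 ± 0.38 for Kdm6b and -2.14 ± 0.37 for Iigp1 (edgeR adjusted p from 0.0636 to 0.0682). The changes of Igfbp3 (3.27 ± 0.80, edgeR adjusted p = 0.144) and Il6 (-3.61 ± 1.02, edgeR adjusted p = 0.187, against -5.65 with all libraries) were smaller there. In this fit of all treatments no list below held a call without them except the capillary list, with Timp4.

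In 75 of the 81 genes the 4 bleomycin libraries did not overlap with the 4 PBS libraries, against 12.0% of the genes tested. The 81 were called on these same libraries, so this is a description and adds no support. Among called genes whose groups did not overlap and whose mean reached 50 CPM, those with the largest rise beside Apln, Mest and Igfbp3 were Ifit2, Gm26917, Lxn, Ccnd1, Lgals1, Mcam and Ube2m. Ccnd1, the gene of the cell cycle protein cyclin D1, was at 130, 24.98, 81.2 and 100.4 CPM in SARAWT PBS 1 to 3 and SARATg PBS and at 901, 300.4, 343 and 345 CPM in SARAWT bleomycin 1 to 3 and SARATg bleomycin (log2 change 2.36 ± 0.44, edgeR adjusted p = 0.0215). Lgals1, which encodes the sugar-binding protein galectin-1, lay at 90.4 to 133 CPM after PBS and at 289.6 to 1028 CPM after bleomycin. By the same limits the largest falls were those of Csf3, Il6, Efna2, Nr4a2, Cxcl1, Fmo2, Crtc2, Lpl, Cep85l and Arl5b. Nr4a2, an orphan nuclear receptor gene, was at 466, 325, 133 and 281 CPM after PBS and at 16.1, 0, 32.01 and 34.5 CPM after bleomycin (log2 change -3.45 ± 0.54, edgeR adjusted p = 0.00862), while the other skin cells stayed at 233 to 318 CPM. Lpl encodes lipoprotein lipase, which capillary endothelium holds on its surface, and lay at 76.3 to 462 CPM after PBS and at 20.7 to 53 CPM after bleomycin. Nr4a2 and Lpl met the filter on low counts only through the PBS libraries, so they could be called only as lower.

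Among genes of sprouting vessels, 4 rose after bleomycin in the 8-library fit and none fell, where 0.973% of all genes tested rose and 1.74% fell. The list of angiogenic tip genes holds 15, of which 10 could be tested, and their median log2 change was 1.39. In the SARAWT libraries alone Apln was the 1 call among 10, with a median of 1.40. Apln met the filter on low counts only through the bleomycin libraries, so it could be called only as higher. When each of the 8 libraries was left out in turn, Apln passed in 8 fits, Lamb1 in 4, Col4a1 in 1 and Angpt2 in 0, all with changes above 0. Angpt2, whose product loosens the contact of endothelium with mural cells, was at 78.8, 49.96, 86.1 and 151 CPM in SARAWT PBS 1 to 3 and SARATg PBS and at 274, 371, 265 and 221 CPM in SARAWT bleomycin 1 to 3 and SARATg bleomycin (log2 change 1.62 ± 0.35, edgeR adjusted p = 0.0388). Lamb1 and Col4a1, which encode a laminin and a type IV collagen chain of the basement membrane, passed too, with Apln. Members with no call included Plvap (0.48 ± 0.45) and Col4a2 (1.60 ± 0.43). Plxnd1, a semaphorin receptor gene that is counted with the VEGF and angiopoietin receptors and modulators, rose with a log2 change of 1.42 ± 0.33 (edgeR adjusted p = 0.0450). Of the 14 of that list tested, it and Angpt2 were higher, none was lower and the median was -0.05. The receptor genes Kdr (-0.74 ± 0.29) and Flt1 (-1.14 ± 0.37) did not pass.

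Basement membrane genes held 4 calls on the higher side, against 0.973% of all genes, and Lamb1 and Col4a1 also stand in the list above. Without 1 library at a time Col15a1, Hspg2 and Col4a1 each passed in 1 of 8 fits. Of 15 genes, 14 were tested, and Col15a1, Lamb1, Hspg2 and Col4a1 passed as higher, none passed as lower, and the median was 1.15. Col15a1, the type XV collagen gene, was at 240, 74.9, 187 and 70.3 CPM in SARAWT PBS 1 to 3 and SARATg PBS. In SARAWT bleomycin 1 to 3 and SARATg bleomycin it was at 1046, 230, 622 and 745 CPM (log2 change 2.22 ± 0.47, edgeR adjusted p = 0.0365). The lowest bleomycin value, in SARAWT bleomycin 2, lay below the highest PBS value. Hspg2, which encodes perlecan, changed by 1.43 ± 0.33 and Col4a1 by 1.70 ± 0.41, and for Col4a1 SARAWT bleomycin 2 (707 CPM) was again within the PBS range of 698 to 1112 CPM. Cells that met the lymphatic rule gave most UMIs of that library. In its remaining cells Col4a1 was at 2918 CPM, against 1061 to 1308 CPM after PBS. Col15a1 was at 1150 CPM there (13 UMIs), against 88.2 to 379 CPM after PBS. Sparc (1.04 ± 0.47) and Sparcl1 (-0.09 ± 0.36) did not pass. In the SARAWT libraries alone none of the 14 passed, with a median of 1.10.

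Among genes by which endothelium calls in leukocytes, 4 fell after bleomycin and none rose, against 1.74% of all genes that fell. Without 1 library at a time Il6 passed in 6 of 8 fits and Csf3, Cxcl1 and Icam1 in 3 each. Of 19 leukocyte adhesion and recruitment genes, 11 were tested, and Il6, Csf3, Cxcl1 and Icam1 passed as lower, none passed as higher, and the median was -1.14. Il6 and Csf3 met the filter on low counts only through the PBS libraries, so they could be called only as lower. Il6, an inflammatory cytokine gene, was at 620, 137, 1725 and 121 CPM in SARAWT PBS 1 to 3 and SARATg PBS and at 0, 17.7, 22.9 and 0 CPM in SARAWT bleomycin 1 to 3 and SARATg bleomycin (log2 change -5.65 ± 0.88, edgeR adjusted p = 0.00862). Csf3, the granulocyte growth factor gene, was at 130, 74.9, 1631 and 231 CPM after PBS and at 0 in all 4 bleomycin libraries, which is at least 124-fold lower over the summed groups when the floor is set at 3 counts. Of the 753 UMIs of Csf3 after PBS 663 came from SARAWT PBS 3, and without it the bound was 25.3-fold. Icam1, the ligand of leukocyte integrins, fell from a mean of 839 ± 342 CPM to 185 ± 104 CPM (SD, n = 4 each). SARAWT PBS 3 had the highest level of all 4 genes. Cxcl12 (-1.14 ± 0.57) and Cd200 (-0.68 ± 0.43) did not pass, nor did the list in SARAWT libraries alone, where 0 of 9 passed with a median of -1.64.

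Immediate early genes, which cells switch on within minutes of a stimulus, held 3 calls on the lower side, against 1.74% of all genes, which passed in 2 to 4 of the 8 fits without 1 library. Of 19 tested, Nr4a1, Zfp36 and Klf4 passed as lower and none as higher, with a median of -1.005 and 18 changes below 0. Klf4, a flow-responsive transcription factor gene, was at 1644, 1224, 915 and 1376 CPM in the 4 PBS libraries and at 483, 689, 485 and 359 CPM in the 4 bleomycin libraries (log2 change -1.34 ± 0.28, edgeR adjusted p = 0.0359). Such genes also respond to tissue dissociation. Their summed level was 13395 to 19258 CPM in PBS endothelial cells and 5228 to 14558 CPM in bleomycin endothelial cells, and 8929 to 15191 CPM and 7828 to 9437 CPM in the other skin cells of the same libraries. The part of dissociation in this difference was not tested.

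**Figure D4:**
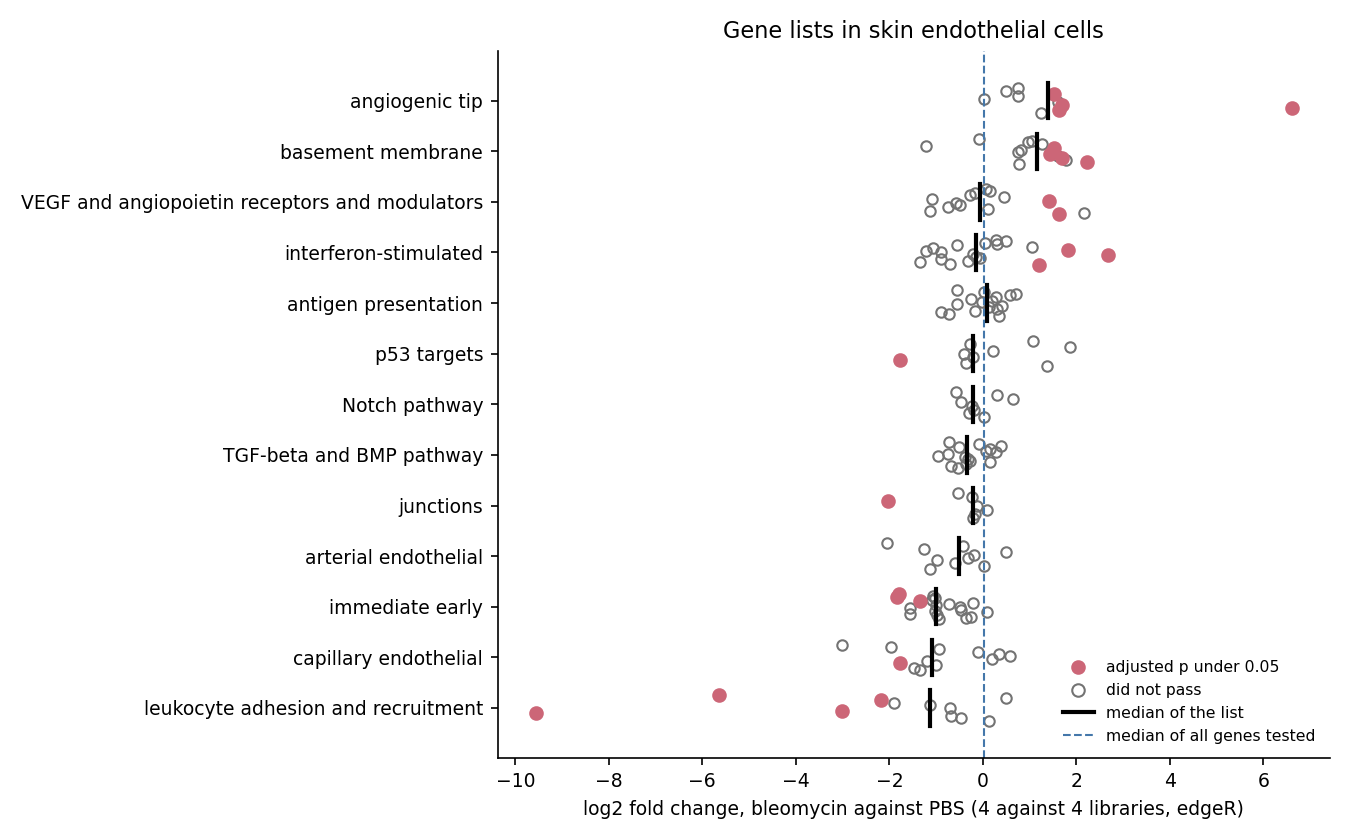
Log2 change of the tested members of gene lists in endothelial cells, bleomycin against PBS in all 8 skin libraries. Each point is a gene outside the choice, filled where it passed, the bars mark the median of each list and the dashed line that of all genes tested. Angiogenic tip and basement membrane genes lie mostly above 0, and leukocyte recruitment, immediate early and capillary genes mostly below.

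Other lists held few or no calls, and are read against the 0.973% of all genes that were higher and the 1.74% that were lower. Capillary genes had a median of -1.09 over 12 tested. Cd36, a fatty acid transporter gene, was the only one to pass, and passed in 1 of the 8 fits without 1 library. It was at 2548, 2735, 1245 and 794 CPM in SARAWT PBS 1 to 3 and SARATg PBS. In SARAWT bleomycin 1 to 3 and SARATg bleomycin it was at 370, 283, 745 and 455 CPM. Cells that met the lymphatic rule gave most UMIs in SARAWT bleomycin 1 and 2. Such cells had less Cd36, Jam2, Il6, Cxcl1, Crtc2, Kdm6b, Iigp1 and Cdkn1a than the remaining cells in the PBS libraries compared above. Of genes that rose after bleomycin, they had more Lamb1 and Angpt2 and less Igfbp3, Mest, Col4a1 and Col15a1 there. The part of this mix in the changes was not tested gene by gene. In the remaining cells alone Cd36 was at 1724 to 4004 CPM after PBS and 555 to 1415 CPM after bleomycin. Fabp4 (-1.19 ± 0.44) and Aqp1 (-1.35 ± 0.49) did not pass. Among 19 interferon-stimulated genes the antiviral genes Ifit2 (2.67 ± 0.62), Irf7 (1.83 ± 0.42) and Bst2 (1.19 ± 0.28) were higher and none was lower, with a median of -0.16. The interferon-inducible Iigp1, which this list does not hold, passed as lower (-2.04). Without 1 library at a time Irf7 passed in 2 of 8 fits and Ifit2 and Bst2 in 0. Of 7 junction genes outside the choice Jam2 passed as lower (-2.03 ± 0.50), and in 0 of those fits. Of 7 venous genes Icam1 passed as lower, and of 9 p53 targets Cdkn1a, which encodes the cell cycle inhibitor p21, passed as lower (-1.76 ± 0.29, in 4 of those fits) with a median of -0.22 for the list. No gene passed among 16 of the TGF-beta and BMP pathway (median -0.34), 7 of endothelial-to-mesenchymal transition (0.22), 16 of antigen presentation (0.08) or 10 arterial genes (-0.51). None passed among 8 lymphatic (-0.49), 8 Notch (-0.21), 10 vascular tone and coagulation (-0.25), 4 proliferation (1.44) or 15 further endothelial genes (0.10). Values of the TGF-beta and BMP list included Eng (0.14 ± 0.39), Id1 (-0.28 ± 0.60), Id3 (-0.39 ± 0.46) and Ltbp4 (-0.95 ± 0.40), though their errors leave room for change. Of the lists of other cells, the mural gene Mcam, which endothelium also expresses, was higher (2.06 ± 0.34, in 4 of those fits) and the adipocyte gene Lpl was lower (-2.43 ± 0.56, in 1). No gene passed of the 2 leukocyte and 2 sex-linked genes tested, and of 9 genes of kidney endothelial segments Igfbp3 was higher and Lpl lower. The fibroblast, keratinocyte, muscle, Schwann, melanocyte, red cell and tubule lists had no member with enough UMIs to test in this fit.

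The changes were looked at apart in the cells that met the lymphatic rule and in the remaining cells, as sums over all PBS and all bleomycin libraries with exact Poisson intervals, which cover counting error only and give no test. In the remaining cells Apln went from 3.14 CPM (0.381 to 11.4) to 402 CPM (333 to 480), Igfbp3 from 145 to 833 CPM and Mest from 26.7 to 332 CPM. Crtc2 went from 222 to 36.5 CPM, Kdm6b from 791 to 186 CPM, Iigp1 from 1963 to 372 CPM and Il6 from 1435 to 16.6 CPM. All 7 genes thus differed in these pooled remaining cells in the same direction as in the summed cells. SARAWT bleomycin 3 and SARATg bleomycin weighed most in the pool, with 171065 and 106273 UMIs. SARAWT bleomycin 1 and 2 gave 12629 and 11309 UMIs, and bleomycin 1 had 2 UMIs of Apln and 3 of Mest there. Prox1 was at 265, 111 and 113 CPM in the remaining cells of SARAWT PBS 2, SARAWT bleomycin 3 and SARATg bleomycin, and at most 10.8 CPM elsewhere. Since the summed cells that met the rule held RNA of both kinds of endothelium in 3 of the 4 bleomycin libraries, their sums after PBS and after bleomycin may not compare 1 kind of cell. Apln, Igfbp3 and Mest had no UMI in the 5 such cells of SARAWT bleomycin 2, the library without Fabp4 in them, and had UMIs in those of the other 3 bleomycin libraries. Angpt2 was at 323, 419.5, 882 and 258 CPM in the cells that met the rule in SARAWT bleomycin 1 to 3 and SARATg bleomycin, and at 131, 0, 141 and 239 CPM after PBS, where SARAWT PBS 2 had 2 such cells. In the remaining cells it went from 56.6 CPM (39.6 to 78.3) to 136 CPM (97.7 to 185), and in those of SARAWT mice alone the intervals overlapped, at 58.6 CPM (40.1 to 82.8) and 97.4 CPM (58.7 to 152). Without the cells that met the rule, and with at least 5 cells per library, 78 of 1570 genes passed in the 8-library fit.

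Promoters of genes that passed in the 8-library fit were read for short motifs on both strands, in the window from 250 bases before to 50 bases after the gene's start in RefSeq (GRCm38.p6). The results below turn on the short CREB site TGACG, which CREB-family factors bind and which lies inside the full CRE TGACGTCA, and on the AP-1 site TGACTCA. The 3 windows printed here belong to Il6 (chr5:30012864-30013163, plus strand), Nr4a2 (chr2:57123954-57124253, minus strand) and Adamts1 (chr16:85803064-85803363, minus strand), a protease gene. They are shown because these genes fell and their windows hold a match, and capitals mark the CREB sites and the AP-1 site.
Il6: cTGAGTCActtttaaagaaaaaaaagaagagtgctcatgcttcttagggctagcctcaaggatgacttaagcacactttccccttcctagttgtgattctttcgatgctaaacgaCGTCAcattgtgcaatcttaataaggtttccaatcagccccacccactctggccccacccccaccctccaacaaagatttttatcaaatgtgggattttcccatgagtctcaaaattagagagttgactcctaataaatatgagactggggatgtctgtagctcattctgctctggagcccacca
Nr4a2: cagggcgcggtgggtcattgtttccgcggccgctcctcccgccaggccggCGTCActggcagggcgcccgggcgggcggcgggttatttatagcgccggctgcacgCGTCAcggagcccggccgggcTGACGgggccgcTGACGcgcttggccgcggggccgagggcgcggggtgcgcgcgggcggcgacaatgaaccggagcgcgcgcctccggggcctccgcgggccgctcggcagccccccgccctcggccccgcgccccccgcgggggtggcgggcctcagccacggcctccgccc
Adamts1: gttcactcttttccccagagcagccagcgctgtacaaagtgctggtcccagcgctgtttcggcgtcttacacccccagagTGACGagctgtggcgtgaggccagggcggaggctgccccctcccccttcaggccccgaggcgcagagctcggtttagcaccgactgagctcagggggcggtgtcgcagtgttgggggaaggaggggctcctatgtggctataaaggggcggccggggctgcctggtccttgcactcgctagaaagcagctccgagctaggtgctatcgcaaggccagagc

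In Il6 the CREB site starts 135 bases and the AP-1 site 249 bases before the gene's start, and Nr4a2 holds 4 CREB sites. TGACG occurred in 20.8% and TGACTCA in 5.20% of all 32841 promoters of this length. TGACG was found for 19 of the 41 genes called lower that had a promoter (46.3%), for 6 of the 22 called higher (27.3%) and for 39.6% of the 2370 genes tested that had one. TGACTCA was found for 4 of the 41 lower genes (9.76%), for 0 of the 22 higher genes and for 5.06% of the genes tested. A match is a description of letters, and no share was tested. The share of TGACG among lower genes lay near that of the genes tested. The other motifs searched were the full CRE (1.79% of all promoters), the hypoxia response core ACGTG (19.6%), the GAS element TTCNNNGAA (8.30%), the ISRE (3.44%), the NF-kB site (0.155%), the ETS site CCGGAAG (8.86%) and TATAAA (13.6%). Of these, the GAS element was found for 9 of the 41 lower genes (22.0%) and 7.51% of the genes tested. TATAAA was found for 8 (19.5%) and 10.5%, ACGTG for 11 (26.8%) and 31.2%, and CCGGAAG for 6 (14.6%) and 19.6%. The full CRE and the ISRE were found for 1 each. The NF-kB site was searched only as 1 exact string of 10 letters, which was found for 0 of the lower genes. Other forms of that site were not searched, so the 0 does not show that these windows lack NF-kB sites. The windows of Apln, Igfbp3 and Mest held no match to any motif as searched.

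The SARATg bleomycin library stood apart in 1 gene when the bleomycin changes of the libraries labelled SARATg and SARAWT were compared. Each SARATg group held 1 library, so this comparison has no replicate check on that side, and the Zfyve9 values above go against the labels, so that it cannot be read as one of genotype. With the single libraries assumed to vary like the SARAWT ones, 1 of 5408 genes passed edgeR's test, while 224 had an unadjusted p under 0.05. It was Apoe, the apolipoprotein E gene, at 514, 687 and 455 CPM in SARAWT PBS and at 193, 159 and 242 CPM in SARAWT bleomycin. In the SARATg libraries it was at 502 CPM after PBS and 6007 CPM after bleomycin. The single SARATg bleomycin library thus stood far above the other 7 and sets the log2 difference of 5.03 ± 0.68 (edgeR adjusted p = 0.0211). Without SARAWT PBS 1 and 3 the difference of Apoe was 5.28, and that of Gdf15, a stress cytokine gene, was -11.9. Only SARAWT bleomycin held more than 1 library in that fit, so its calls are not read. Other skin cells had 902 to 4465 CPM of Apoe, and the same library had the highest leukocyte RNA in its endothelial cells (2193 CPM, with Lyz2 at 1469 CPM), whose part in the result was not tested.

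The endothelial cells of SARAWT PBS skin were then set beside those of SARAWT kidney given vehicle, chosen by the same thresholds from PDGFRb+GFP+ kidney cells. Of 6771 genes, 1116 (16.5%) passed edgeR's test, 619 (9.14%) higher and 497 (7.34%) lower in skin, and the median log2 difference over all genes was -0.05. The kidney mice were 8 weeks old as well and were injected into the peritoneum over 3 weeks, against 2 weeks under the skin. Tissue, route, vehicle and length of treatment go together in these libraries and cannot be told apart, while the gene list was that of all 3 kidney libraries in SARAWT PBS 3 and the other one in SARAWT PBS 1 and 2. The make-up differed too. Cells that met the lymphatic rule were 28.2%, 13.3% and 30.4% of endothelial cells in SARAWT PBS 1 to 3. They were 1.96%, 5.08% and 0.613% in kidney vehicle 1 to 3. Without them 865 of 6194 genes passed edgeR's test. Zfyve9 was at 1096 CPM in SARAWT PBS 3 and at 58.6, 34.3 and 16.1 CPM in kidney vehicle 1 to 3. SARAWT PBS 1 and 2 held human ZFYVE9, which the kidney gene list lacks. The level of this RNA thus cannot be told apart from tissue either. Without SARAWT PBS 1 and 3 the 1 skin library left gave 0 calls among 9247 genes by edgeR, with 1250 at an unadjusted p under 0.05, so the calls below rest on these libraries. Of the 20 genes with the largest differences 18 could be tested there, and all 18 kept their direction with edgeR adjusted p from 0.127 to 0.459. Adamts4 went from 6.60 to 3.04, Il6 from 7.06 to 4.23 and Cxcl1 from 6.69 to 5.11 on the log2 scale, while Ccl2 was at 6.67 and Slc34a1 at -11.4. General endothelial genes such as Kdr (0.08 ± 0.38) and Flt1 (0.08 ± 0.29) did not pass, and of 15 endothelial genes 1 was higher (Vwf, 4.21 ± 0.58) and 3 were lower in skin (Emcn, Tek and Cd34). Emcn was at 240, 300 and 413 CPM in SARAWT PBS skin 1 to 3 and at 1681, 1344 and 1520 CPM in kidney vehicle 1 to 3 (log2 difference -2.11 ± 0.34, edgeR adjusted p = 0.00407).

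Lymphatic and capillary lists held calls on the skin side only. Prox1 was at 397, 325 and 202 CPM in skin and at 2.55, 24.5 and 0 CPM in kidney (log2 difference 5.35 ± 0.89), and Mmrn1 and Ccl21a passed as well, 3 of 6 lymphatic genes tested with a median of 3.26. Prox1 and Ccl21a met the filter on low counts only through the skin libraries, so they could be called only as higher. Ccl21a has 2 near-identical entries, between which reads may be divided. Of 14 capillary genes 5 were higher and none lower in skin, with a median of 0.56. Cd36 was at 2548, 2735 and 1245 CPM in skin and 264, 213 and 118 CPM in kidney (3.55 ± 0.41), and Meox2, Aqp7, Timp4 and Tcf15 were the others, of which MEOX2 and TCF15 are partner transcription factors of fatty acid uptake in heart and muscle capillaries. Fabp4 (0.95 ± 0.36) and Gpihbp1 (-0.15 ± 0.55) did not pass. Of 13 genes of kidney endothelial segments tested, 8 were lower in skin, among them Igfbp5 (-3.27 ± 0.43), Igfbp3 (-3.92 ± 0.62), Ehd3 (-2.19 ± 0.61), a glomerular gene, and Plvap (-1.77 ± 0.49), and Tspan7 was higher (3.31 ± 0.51). Esm1, the endocan gene, was at 6.85, 0 and 0 CPM in skin and at 1000.2, 316 and 486 CPM in kidney (-7.60 ± 0.84), and with Plvap made 2 lower against 4 higher of 12 angiogenic tip genes. Esm1 met the filter on low counts only through the kidney libraries, so it could be called only as lower.

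The 10 largest differences on the skin side, among genes without overlap, were Csf3, Dusp2, Fgl2, Ccl2, Il6, Cxcl1, Adamts4, Hspa1b, Cxcl2 and Ccl21a, most of which encode cytokines, chemokines or early response proteins. These 10 genes met the filter on low counts only through the skin libraries, so each could be called only as higher. Ccl2, a monocyte chemokine gene, was at 288, 150 and 160 CPM in skin and at 1.28, 0 and 2.01 CPM in kidney (7.21 ± 0.57, edgeR adjusted p = 0.000269), a ratio of 165 with a counting interval of 55.4 to 807. Csf3 was at 130, 74.9 and 1631 CPM in skin, with 663 of its 707 UMIs in SARAWT PBS 3, and had no UMI in kidney. It was at least 724-fold higher in skin over the groups with a floor of 3 counts, and at least 94.2-fold without SARAWT PBS 3. Of 19 immediate early genes 14 were higher and none lower in skin, with a median of 3.14. Of 13 leukocyte recruitment genes 7 were higher, Csf3, Il6, Ccl2 and Cxcl1 among them, and none lower, with a median of 3.46. The other cells moved with the immediate early genes, whose sum was 8929 to 15191 CPM in other skin cells and 1154 to 3170 CPM in other kidney cells. Reads of Hspa1b may be divided with its near-identical copy Hspa1a.

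**Figure D5:**
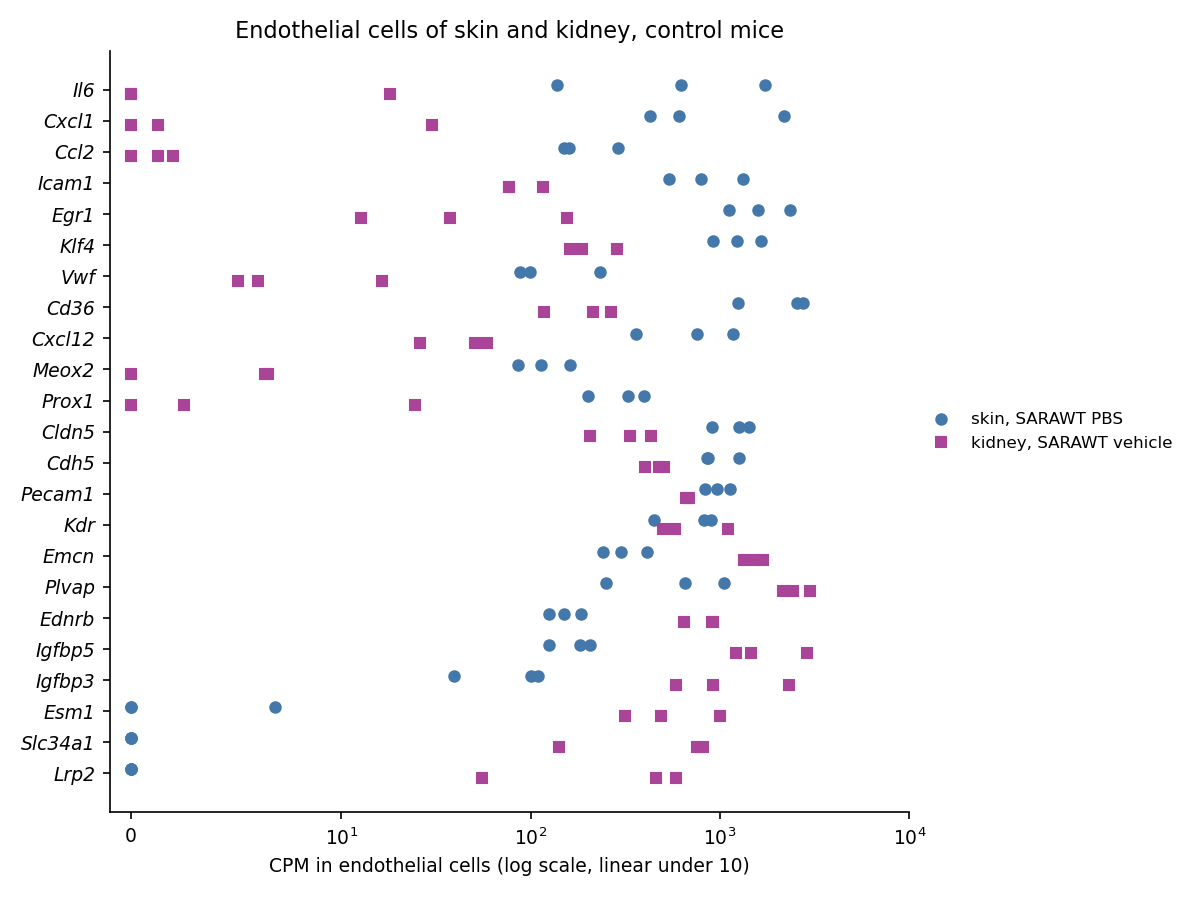
CPM (log axis, linear under 10) of named genes in endothelial cells of 3 SARAWT PBS skin and 3 SARAWT vehicle kidney libraries. Points are libraries. Il6, Cxcl1 and Ccl2 lie higher in all skin libraries, the points of Kdr overlap, and Slc34a1 and Lrp2 have no UMI in skin.

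Among the largest on the kidney side were the genes Kap, Miox, Akr1c21, Slc34a1, Keg1, Pck1, Lrp2, Acsm2 and Spink1, which proximal tubule expresses. These 9 genes had no UMI in the skin endothelial cells. They met the filter on low counts only through the kidney libraries, so they could be called only as lower in skin. The tubule list summed to 5591 to 23153 CPM in kidney endothelial cells, 13925 to 59140 CPM in the other kidney cells and 0 to 58.2 CPM in the SARAWT PBS skin endothelial cells, and the part of tubule RNA in these calls was tested only by leaving out kidney cells with tubule genes. Kidney vehicle 1 then kept 3 cells and dropped out, and 524 of 5502 genes passed with 2 kidney libraries, against 606 without kidney vehicle 1 alone. The lists are read against the 9.14% of all genes that were higher and the 7.34% that were lower in skin. Of the other lists, 3 arterial genes of 12 tested, 3 venous of 9, 4 of the Notch pathway of 12, 4 of basement membrane of 15, 3 of endothelial-to-mesenchymal transition of 11, 2 of the TGF-beta and BMP pathway of 23 and 1 of proliferation of 6 were higher in skin, and none of these lists held a lower gene. Interferon-stimulated genes were higher for 2 and lower for 5 of 22, those of vascular tone and coagulation for 4 and 3 of 15, and p53 targets for 1 and 1 of 13. Of VEGF and angiopoietin genes 1 of 15 was lower, and of 16 antigen presentation genes none passed. Of the other-cell lists, 9 tubule genes of 9 tested were lower in skin, the fibroblast gene Pi16 was lower, 1 of 2 muscle genes was higher, and no leukocyte, mural, adipocyte or sex-linked gene passed. Kap, Miox, Slc34a1 and Lrp2, which could be called only as lower, are in that tubule list. Of 9 junction genes outside the choice Jam2 was higher and Jam3 lower. The count of calls was 291 without SARAWT PBS 1, 453 without SARAWT PBS 3, 606 and 617 without kidney vehicle 1 and 2, and 1802 without kidney vehicle 3.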

How the data were processed

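Single-cell RNA libraries (10x Genomics, 3' chemistry) of sorted PDGFRb+GFP+ cells were analysed, 8 from skin and 9 from kidney. The authors deposited UMI counts per gene and cell, made by Cell Ranger with reads mapped to mm10. The submitters' processing notes name Cell Ranger 3.0.2 and Seurat 2.3.4, while the matrix headers name Cell Ranger 4.0.0 for 4 skin libraries, 3.1.0 for the other 4 and 3.0.2 for kidney. Genes were joined over the 30406 identifiers that both gene lists share, of which 30329 are in GENCODE vM21. Genes whose 3' ends overlap or that have near-identical copies are uncertain.

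Cells with 200 genes or more entered when mitochondrial genes gave no more than 20% of their UMIs, and endothelial cells were chosen from them as described above. The members and the 31 gene lists were chosen with earlier results of these data known. UMIs were summed over the endothelial cells of each library with at least 10 of them, since cells are not replicates, and CPM are these sums per 1000000 UMIs. Sums were compared with edgeR 4.0.16 (quasi-likelihood F test, two-sided, filterByExpr, TMM, Benjamini-Hochberg over all genes tested, threshold 0.05) in R 4.3.3, and shares with exact permutation tests over libraries (scipy 1.17.1). DESeq2 1.42.0 was an alternative. Doublets were marked with scrublet in scanpy 1.11.5 at 0.8% per 1000 cells and kept in the reported values. On simulated counts with 200 genes changed by 2 on the log2 scale, the test recovered 75% among the 2651 genes of the SARAWT bleomycin comparison and 62.5% among the 6771 genes of the skin and kidney comparison.

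Genes were named by rule. Each test gave the 10 largest changes in each direction, or fewer, out of the genes that passed, whose groups did not overlap and whose mean reached 50 CPM. Where fewer than 5 passed in a direction, all of them were named with up to 5 of the smallest p. From each list came the members past the threshold and the up to 4 with the highest level. Lamb1, Hspg2, Lxn, Sema3d, Tbx1, Cldn11, Foxp2, Rgcc, Adamts1, Lgals1, Ccnd1 and Apoe and the other genes of the lymphatic contrast were described after their values were seen where the rule did not reach them. 1 gene that the rule reached is not reported here. Genes with more than 1 identifier were kept apart.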

Additional observations from a re-analysis of the deposited data

Results flagged for a closer look

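Endothelial cells were a larger share of the cells kept in the kidney libraries of SARATg mice given vehicle than in the other kidney controls. They were 12.0% in SARATg vehicle 1 and 6.43% in SARATg vehicle 2, against 1.73%, 1.17% and 2.35% in SARAWT vehicle 1 to 3. These SARATg kidney libraries enter no comparison above, and the difference was not tested.

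Human ZFYVE9, an entry of the gene list of only 4 skin libraries and part of no comparison above, was at 1615 CPM in the endothelial cells of the library labelled SARAWT PBS 1. This was 475 UMIs in 64 of 71 cells. In the other cells of that library it was at 831 CPM.

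The bleomycin changes of Apoe in libraries labelled SARATg and SARAWT lay 5.03 apart on the log2 scale in the test of the difference given above (edgeR). It rests on 1 library in each SARATg group, assumed to vary like the SARAWT libraries, and on SARATg bleomycin in particular. No group held 4 or more libraries, so no library was tested as standing apart from its group.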

How the results depend on the processing

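Depth limits these results, since 10 to 71 endothelial cells stood for a library and 1 UMI weighed up to 17.7 CPM. The difference in the share of cells kept, SARAWT bleomycin minus PBS, was -1.13 percentage points (-1.33 to -0.978 without 1 library) and that in the share of cells without Ptprc was -1.96 (-2.26 to -1.61), and both kept their direction under every alternative run. The difference in the share that met the lymphatic rule was 12.7 points (5.99 to 19.2 without 1 library) and turned to -6.48 with cells thinned to 1000 UMIs. Without SARAWT PBS 1 and 3, an alternative chosen after seeing the data, these differences were -1.42, -1.38 and 23.3.

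The count of genes past the threshold in the SARAWT bleomycin comparison was 6. It was 56 with DESeq2, 189 without a filter on low counts, 14 with a minimum of 500 genes and a maximum of 10% mitochondrial UMIs in a cell, 13 with at least 5 UMIs of at least 3 of the genes of the choice, 14 without the cells that met the lymphatic rule, 19 without cells whose barcode is shared, 71 without cells with markers of other types, 147 with at least 20 cells per library and 81 with all 8 libraries and genotype as a term. Of these, 147, 19 and 71 come from 2 libraries against 1 and 14, 13 and 14 from 3 against 1, where the single library is assumed to vary like the others. The count was 9 with the gene list as a term and 6 with only the deepest copy of a shared barcode kept. It ranged from 0 to 8 when 1 library was left out. In all 8 libraries the count was 81, with 157 by DESeq2, 345 without a filter and 47 without cells with markers of other types. It was 115 with the gene list as a term and 66 with only the deepest copy of a shared barcode kept. It was 1 without SARAWT PBS 1 and 3, and 6 to 90 without 1 library. Between skin and kidney it was 1116, with 1904 without a filter, 718 without shared barcodes, 431 without cells with markers of other types, 524 without kidney cells with tubule genes (2 kidney libraries), 0 without SARAWT PBS 1 and 3 (1 against 3 libraries, 1250 genes at an unadjusted p under 0.05), and 291 to 1802 without 1 library. None of the 16, 81 and 20 genes followed through the alternatives of the 3 comparisons changed sign, and other named genes were not followed. The cause of these shifts was not tested.

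Replicate numbers are shared between groups but did not pair the libraries. Same-numbered libraries deviated from their group means with r = 0.0113, -0.00808 and 0.166 across 2651 genes in the bleomycin comparison. Between tissues r was 0.0178, 0.0181 and 0.0898 across 6771 genes. In the bleomycin comparison r was -0.107 to -0.0545 for pairs of different gene lists and -0.00808 to 0.166 for pairs of the same list. With the replicate block the counts were 4 and 1074, and the difference in the share of cells kept had an exact p of 0.25, the smallest that 8 sign flips allow. The lymphatic share had a p of 0.5 with the block.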

Other observations

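Venous and adhesion genes were high in the endothelial cells of 1 control library. Selp, the P-selectin gene of postcapillary venules, was at 2873 CPM in SARAWT PBS 3 and at 20.5 and 0 CPM in SARAWT PBS 1 and 2, and the 5 other skin libraries had at most 25.1 CPM. Ackr1, the atypical chemokine receptor gene of venules, was at 753 CPM, Sele at 554 CPM and Vcam1 at 273 CPM in SARAWT PBS 3. These values are given without a test.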
